A study of Mus musculus with 12 samples.

Results

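The genes described here copy DNA and supply its building blocks: 44 were listed by symbol, from origin recognition to nucleotide synthesis, and 43 were in the table of 14398 genes. All 43 passed the filter on low counts, which kept 14266 genes, and Cdc45 stood under its current symbol. Fen1 was not analysed here. The genes were chosen by role and symbol and not by a rule on their values, though with earlier results of these data known. They were split into 9 steps of replication, also with those results known. RNA came from adipocyte precursor cells, the stromal cells that form new fat cells, of male C57Bl6/J mice aged 6 to 8 weeks. The cells were sorted as CD45- and CD31-, CD29+, CD34+ and Sca1+, with CD24 either absent or present, so the gate holds more than 1 kind of precursor. Perigonadal fat (VWAT) and inguinal subcutaneous fat (SWAT) were taken from mice on a standard diet (SD, Harlan 2018S, labelled day 0) or after 3 days on a high-fat diet (HFD, Research Diets D12492, 60% lard, labelled day 3). The 4 groups, VWAT_SD, VWAT_HFD, SWAT_SD and SWAT_HFD, had 3 libraries each, and each library pooled 3 mice. All groups were unmodified mice of the same strain and sex, and the labelled day goes with the diet, so day and diet cannot be told apart.

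A cell licenses its replication origins before S phase: the origin recognition complex, Cdc6 and Cdt1 load the ring-shaped MCM2-7 helicase onto DNA. In S phase the kinase Cdc7 with Dbf4, together with Cdc45, the GINS complex and Mcm10, turns the loaded ring into a moving helicase, and polymerases, a sliding clamp and its loader follow. Many of these genes are known targets of E2F transcription factors, and cells that leave the cycle are known to lower them. Adipocyte precursors are mostly quiescent in adult fat and are known to divide early in high-fat feeding.

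What the promoters of these genes share was read first, since the gene list did not use it. Of the 43 genes, 37 matched a RefSeq promoter (build GRCm38.p6, 250 bases before to 50 after the start). Gmnn, Mcm4, Gins1, Gins2, Prim2 and Pole had no match. An E2F word, here TTTCCCGC or TTTCGCGC or TTTGCCGC or TTTGGCGC with 8 letters, searched on both strands, was in 17 of the 37 genes (45.9%), against 704 of 27025 genes in the promoter table (2.6%). In 20 mitosis genes used for comparison, 18 of them matched, the share was 5.56%. Some windows with these words are shown because they let genes that rose in VWAT be set beside genes that did not pass. Capitals mark the E2F words, each lies before the start, and each sequence is written 5′ to 3′ on the gene's strand. The first 5 belong to genes that rose on HFD in VWAT and the last 5 to genes that did not pass there.
Orc1: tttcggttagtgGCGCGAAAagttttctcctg
Mcm5: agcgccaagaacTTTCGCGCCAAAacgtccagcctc
Mcm6: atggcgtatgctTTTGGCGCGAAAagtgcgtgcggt
Dtl: gcgtgacgtcagTTTGGCGC
Uhrf1: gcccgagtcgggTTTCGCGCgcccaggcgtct
Cdc6: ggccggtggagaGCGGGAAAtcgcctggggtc
Gins3: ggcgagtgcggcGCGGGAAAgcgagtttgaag
Mcm7: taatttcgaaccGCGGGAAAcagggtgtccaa
Pola1: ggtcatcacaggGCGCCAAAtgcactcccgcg
Rfc3: gacgtcgcacgcTTTCGCGCtc

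These windows lie, in GRCm38.p6, at chr4:108579415-108579446 (Orc1, plus strand), chr8:75109344-75109379 (Mcm5, plus), chr1:128359792-128359827 (Mcm6, minus), chr1:191575545-191575564 (Dtl, minus) and chr17:56304116-56304147 (Uhrf1, plus, at the second of 2 starts). The others lie at chr11:98908001-98908032 (Cdc6, plus), chr8:95633506-95633537 (Gins3, plus), chr5:138172029-138172060 (Mcm7, minus), chrX:93632274-93632305 (Pola1, minus) and chr5:151651209-151651230 (Rfc3, minus). In Mcm5 and Mcm6, 2 words on opposite strands overlap. The word was in 10 of the 21 matched genes that rose in VWAT (47.6%) and in 7 of the 16 that did not pass (43.8%), so its presence did not separate these genes in this window. With the same words cut to 7 letters by dropping the first T, so that every longer match is counted again, 25 of 37 genes matched (67.6%) against 10.9% of all. CCAAT was in 24 of 37 (64.9%) against 41.1% of all genes and 94.4% of the mitosis genes. The cell-cycle homology region, read as TTTGAA or TTCGAA and known from promoters of mitosis genes, was in 8 of 37 (21.6%), against 21.7% of all genes and 15 of 18 mitosis genes (83.3%). A match is a run of letters and not a measured binding site.

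Gene counts per library were 17.6 M to 56.1 M, fewest in SWAT_HFD replicate 1, and the lowest count of a replication gene in any library was 8. Levels are CPM, that is counts scaled by TMM to the same library size, and differences are log2 with the standard error (SE) of the fit. A gene rose or fell where edgeR's quasi-likelihood test gave a Benjamini-Hochberg adjusted p under 0.05 over all 14266 genes. The p-values measure the spread between pools of mice. The 9 precursor markers summed to 20000 to 78300 CPM, and the 10 leukocyte markers to 7.72 to 17.7 CPM in every library except SWAT_HFD replicate 2, at 48.1. That library also held 6.93 CPM of Ptprc, which encodes CD45, against 0.129 to 0.656 in the others. Endothelial markers summed to 187 to 315 CPM, of which Tek alone made up 173 to 302, and adipocyte markers to at most 5.61.

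In VWAT, 25 of the 43 replication genes rose on HFD and none fell, where 8.64% of all genes rose and 6.98% fell. Their median log2 change was 0.84, with a range of -0.13 to 2.51, against -0.017 over all genes. The largest changes were in Clspn, Gmnn, Mcm10, Chaf1b, Dtl and Rrm2. In 30 genes the 3 HFD libraries all lay above the 3 SD libraries and in none below, where 15.5% of all genes lay wholly above and 17.5% wholly below. In RNA from sorted pools, more cells in cycle and more RNA per cell cannot be told apart. In VWAT the leukocyte markers summed to 11.3 to 17.7 CPM on SD and 7.72 to 10.7 CPM on HFD, and 1 of 10, Cd14, fell (log2 -0.87, adjusted p 0.00339). The 6 mural markers summed to 120 to 148 CPM on SD and 113 to 132 on HFD: Myh11 fell 2.68-fold (adjusted p 0.0154), and Notch3 (log2 0.73) and Cspg4 (0.77) rose. Of the 9 precursor markers, Col1a1 (log2 1.06), Lum (0.69) and Itgb1 (0.36) rose. The part of these markers in the result was not tested.

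**Figure D1:**
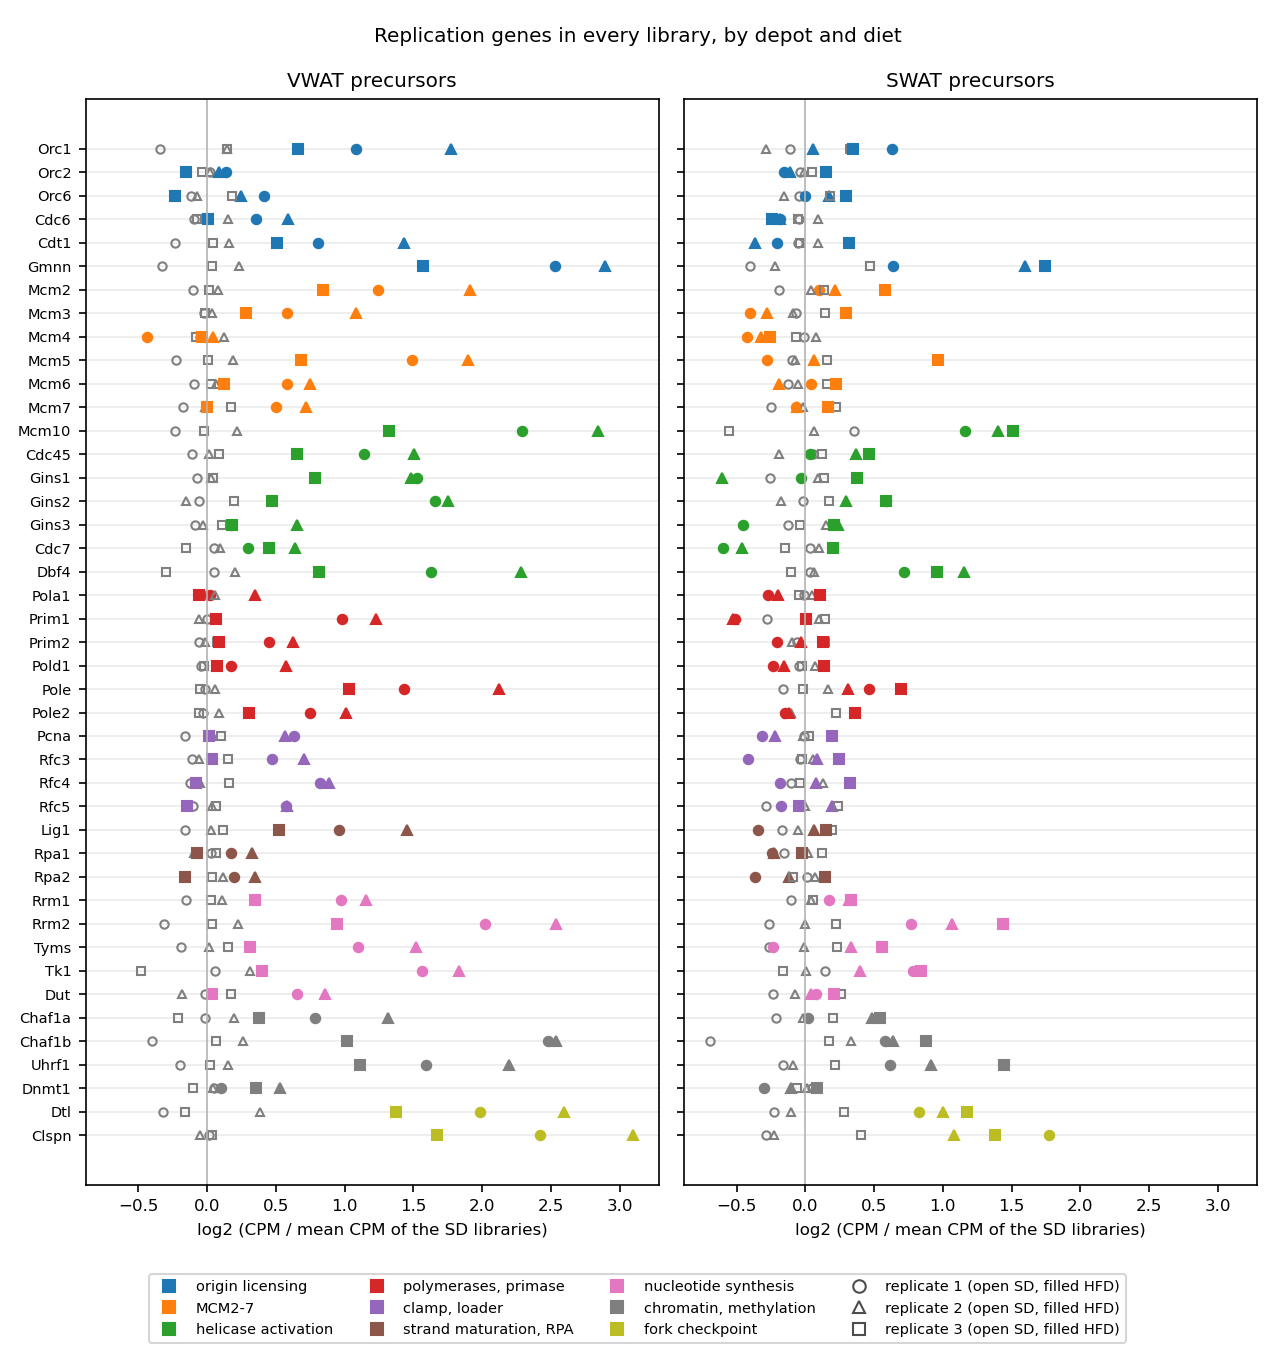
Each of the 43 replication genes in every library, in VWAT (left) and SWAT (right), as log2 of CPM over the mean CPM of the same depot's SD libraries. Open points are SD, filled points HFD, shapes the replicates and colours the steps. In VWAT the filled points lie to the right of the open ones in 30 genes, with replicate 3 lowest in 39. In SWAT they do so in 12.

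The 3 VWAT_HFD libraries differed in size of change. Replicate 3 was the lowest of the 3 in 39 of 43 replication genes and in all 20 mitosis genes, while replicate 2 was the highest in 39. The median log2 over the SD mean was 0.80, 1.16 and 0.35 in replicates 1, 2 and 3. Replicate 3 still lay above every SD library in 30 genes. Without it, 34 of the 43 rose, and without replicate 2, 16 did. Calls over all genes moved as well, from 1232 that rose to 2137 without replicate 3 and 493 without replicate 2.

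Of the origin recognition genes, Orc1 rose and Orc2 and Orc6 did not pass. Orc1, the only listed subunit of the origin recognition complex that rose in VWAT, is known to be cell-cycle controlled. It stood at 0.408, 0.571 and 0.572 CPM in VWAT_SD and at 1.09, 1.77 and 0.817 in VWAT_HFD (log2 1.25 ± 0.303, adjusted p 0.0161). Its levels in SWAT were 0.440, 0.390 and 0.596 on SD and 0.736, 0.495 and 0.603 on HFD, which overlapped. Orc2, which stays in the complex through the cycle, did not pass: it ran from 18.4 to 19.1 CPM on SD and from 16.9 to 20.8 on HFD in VWAT (log2 0.03 ± 0.101). Orc6 also did not pass (log2 0.17 ± 0.153).

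Of the loader pair and their inhibitor, Cdt1 and Gmnn rose in VWAT and Cdc6 did not pass; differences between these genes were not tested. Cdc6, the ATPase that loads the helicase with Cdt1, was at 3.47, 4.13 and 3.53 CPM in VWAT_SD and 4.73, 5.58 and 3.72 in VWAT_HFD (log2 0.34 ± 0.152, adjusted p 0.148). Cdt1 rose in VWAT, from 2.70, 3.56 and 3.27 CPM to 5.54, 8.55 and 4.52 (log2 0.97 ± 0.229, adjusted p 0.0141), with no overlap. In SWAT it was already at 5.80, 6.41 and 5.87 CPM on SD and at 5.22, 4.67 and 7.51 on HFD. The VWAT libraries on HFD therefore spanned the SWAT levels, and VWAT on SD lay below all of them. Gmnn encodes geminin, which binds Cdt1 and blocks a second round of licensing. It rose from 0.357, 0.529 and 0.462 CPM to 2.60, 3.33 and 1.33 in VWAT, a 5.40-fold change (log2 2.43 ± 0.360, adjusted p 0.00134). Its SWAT values were 0.325, 0.368 and 0.596 on SD and 0.669, 1.30 and 1.44 on HFD (log2 1.55 ± 0.404, adjusted p 0.0914). The groups did not overlap in either depot, though the SWAT difference did not pass.

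The ratio of Gmnn to Cdt1 reads, chosen after the values were seen and not scaled for length, was 0.132 to 0.149 in VWAT_SD and 0.295 to 0.468 in VWAT_HFD. In SWAT it was 0.0561 to 0.102 on SD and 0.128 to 0.278 on HFD. It was thus higher on HFD in every library of both depots, and higher in VWAT than in SWAT on SD. Gmnn had only 13 to 17 reads per library in SWAT_SD and 10 to 69 in SWAT_HFD. Its levels and ratios in SWAT therefore rest on few reads.

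MCM2-7 is a ring of 6 different subunits in equal number, and its mRNAs did not move equally. In VWAT, 4 of the 6 rose: Mcm5 (log2 1.44 ± 0.301, adjusted p 0.00774), Mcm2 (1.40 ± 0.225, 0.00187), Mcm3 (0.69 ± 0.195, 0.0315) and Mcm6 (0.51 ± 0.148, 0.0354). Mcm7 (0.44 ± 0.170, adjusted p 0.0965) and Mcm4 (-0.13 ± 0.115, 0.473) did not pass. The Mcm3 and Mcm6 calls were lost without any 1 of several VWAT libraries, and when the counts were scaled by library size alone.

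Mcm2 stood at 4.06, 4.61 and 4.39 CPM in VWAT_SD and at 10.3, 16.4 and 7.81 in VWAT_HFD. The SWAT libraries held 4.65, 5.46 and 5.82 on SD and 5.68, 6.16 and 7.93 on HFD. All VWAT_HFD libraries lay above the VWAT_SD ones, while the SWAT groups overlapped. Mcm5 went from 3.91, 5.23 and 4.60 CPM to 12.9, 17.0 and 7.33 in VWAT. Its SWAT_HFD libraries spread from 3.14 to 7.43 around SWAT_SD levels of 3.56 to 4.26. Mcm4 was at 35.3, 39.9 and 34.6 CPM in VWAT_SD and 27.0, 37.8 and 35.6 in VWAT_HFD, within the same range but for replicate 1. In SWAT the Mcm4 libraries on HFD (25.6, 27.4 and 28.7) all lay below those on SD (34.0, 36.2 and 32.7), a difference that did not pass (log2 -0.33 ± 0.117, adjusted p 0.209).

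Per kb of exon, the subunits were far apart on SD and closer in VWAT on HFD. Mcm4 was the most abundant in every group, at 10.2 ± 0.807 CPM per kb (SD, n = 3) in VWAT_SD, where Mcm2 was at 1.29 ± 0.0818 and Mcm5 at 1.32 ± 0.190. In VWAT_HFD the means were 9.32 ± 1.59 for Mcm4, 3.41 ± 1.31 for Mcm2 and 3.59 ± 1.41 for Mcm5. The highest subunit stood 7.91 times above the lowest in VWAT_SD, 2.73 times in VWAT_HFD, 8.70 times in SWAT_SD and 5.42 times in SWAT_HFD. By library the span was 7.39 to 8.69 times in VWAT_SD and 2.16 to 4.68 times in VWAT_HFD. In SWAT it was 7.40 to 9.65 times on SD and 3.72 to 7.85 times on HFD. Mcm3, Mcm6 and Mcm7 lay between, at 3.13 to 4.96 CPM per kb in VWAT_SD. Exon lengths are from GENCODE M21 and not from the annotation behind the counts, so the order of subunits rests on those lengths.

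**Figure D2:**
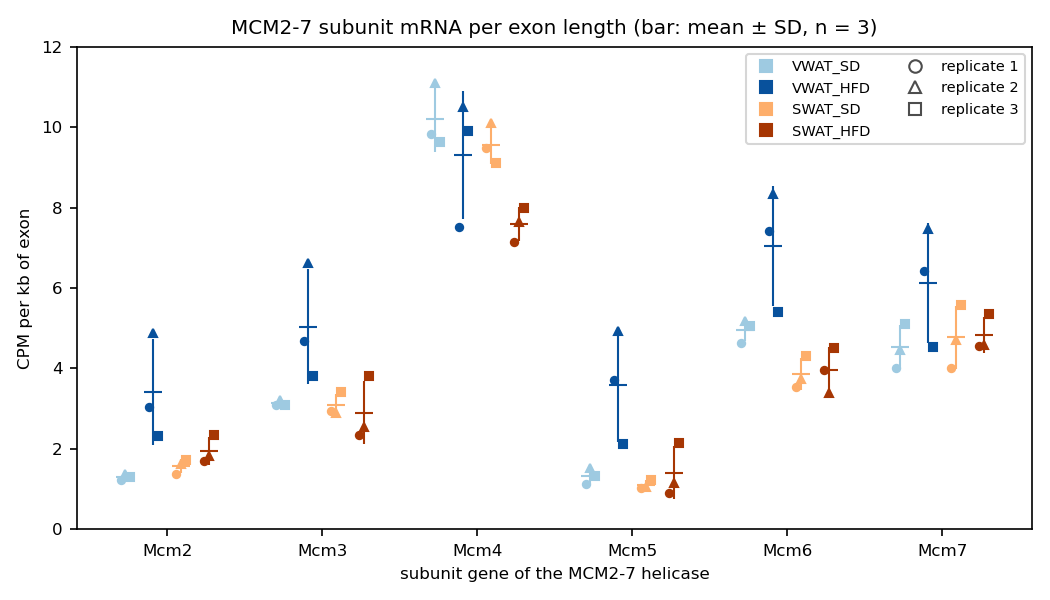
CPM per kb of exon for the 6 subunit genes of the MCM2-7 helicase, by depot and diet. Points are libraries (shapes give the replicate), and bars are mean ± SD of 3 libraries. Mcm4 is highest in every group. Mcm2 and Mcm5 are near 1.3 in VWAT_SD and at 3.41 and 3.59 in VWAT_HFD.

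Helicase activation had 5 of 7 genes that rose in VWAT, with a median log2 change of 1.30, and all 7 lay above SD in every HFD library. Mcm10, which binds the activated helicase, rose 4.87-fold, from 0.527, 0.719 and 0.609 CPM to 3.03, 4.43 and 1.55 (log2 2.28 ± 0.336, adjusted p 0.00133). In SWAT the libraries stood at 0.689, 0.563 and 0.367 on SD and 1.20, 1.42 and 1.54 on HFD (log2 1.32 ± 0.371, adjusted p 0.114). The groups were apart in both depots, and the SWAT difference did not pass.

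Cdc45, a fixed part of the active helicase, rose from 2.08, 2.26 and 2.38 CPM to 4.94, 6.36 and 3.53 in VWAT (log2 1.14 ± 0.201, adjusted p 0.00313). In SWAT it was at 1.88 to 2.34 on SD and 2.21 to 2.98 on HFD, which overlapped. The GINS complex joins Cdc45 and MCM2-7, and its listed subunits were split. Gins1 (log2 1.30 ± 0.277, adjusted p 0.0084) and Gins2 (1.40 ± 0.269, 0.0049) rose in VWAT, and Gins3 (0.35 ± 0.198, 0.243) did not pass. Gins1 stood at 0.510, 0.550 and 0.554 CPM in VWAT_SD and 1.55, 1.5 and 0.925 in VWAT_HFD. Its SWAT libraries ran from 0.631 to 0.825 on SD and from 0.495 to 0.978 on HFD, around the same level.

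Cdc7 and its activating partner Dbf4, which phosphorylate the loaded ring, moved unequally. Dbf4 rose in VWAT from 2.53, 2.81 and 1.99 CPM to 7.57, 11.9 and 4.30 (log2 1.7 ± 0.284, adjusted p 0.00239). The SWAT libraries held 2.83, 2.88 and 2.57 on SD and 4.55, 6.13 and 5.35 on HFD (log2 0.96 ± 0.295, adjusted p 0.15), again without overlap. Cdc7 was at 6.84, 7.02 and 5.93 CPM in VWAT_SD and 8.12, 10.2 and 9.01 in VWAT_HFD (log2 0.47 ± 0.175, adjusted p 0.0869). The ratio of Dbf4 to Cdc7 reads, also chosen after the values were seen, was 0.336 to 0.401 over the 6 SD libraries of both depots. On HFD it was 0.932, 1.16 and 0.477 in VWAT and 0.971, 1.19 and 0.656 in SWAT, above every SD library.

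Polymerase epsilon copies the leading strand. Its catalytic gene Pole rose from 1.85, 1.95 and 1.81 CPM to 5.05, 8.13 and 3.83 in VWAT (log2 1.60 ± 0.236, adjusted p 0.00133). In SWAT the libraries stood at 1.78, 2.23 and 1.97 on SD and 2.74, 2.48 and 3.23 on HFD (adjusted p 0.371), with no overlap. Pole2, its second subunit, rose by 0.72 ± 0.195 on the log2 scale (adjusted p 0.0268). The catalytic genes of the other replicative polymerases did not pass: Pola1, of the enzyme that starts each strand, ran from 17.2 to 18.6 CPM on SD and from 17.2 to 22.8 on HFD in VWAT (log2 0.12 ± 0.118). Pold1, which copies the lagging strand, gave a log2 of 0.29 ± 0.131 (adjusted p 0.153).

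Primase makes the RNA primers, with Prim1 as the catalytic subunit. Prim1 rose from 2.43, 2.33 and 2.53 CPM to 4.8, 5.68 and 2.54 in VWAT (log2 0.84 ± 0.253, adjusted p 0.0409), with HFD replicate 3 at the SD level. Its SWAT values were 2.91, 3.77 and 3.90 on SD and 2.47, 2.44 and 3.54 on HFD, which overlapped. The Prim1 call passed in 9 of 19 alternatives. Prim2 was just short of passing (log2 0.41 ± 0.135, adjusted p 0.0588).

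None of the 4 genes of the clamp and its loader passed in VWAT, with log2 changes of 0.38 to 0.61 and adjusted p of 0.0816 to 0.18. Pcna, the sliding clamp, had the highest level of all 43 genes per kb of exon in SWAT_SD. It was at 47.0, 53.9 and 56.3 CPM in VWAT_SD and 81.4, 77.8 and 52.9 in VWAT_HFD (log2 0.43 ± 0.158). Replicates 1 and 2 lay above all SD libraries and replicate 3 among them. Replicate 3 was also the lowest HFD library in the loader genes Rfc3, Rfc4 and Rfc5. Without VWAT_HFD replicate 3 all 4 genes passed.

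Of the strand maturation and single-strand binding genes, only Lig1 rose among the 3 measured. It encodes the ligase that joins Okazaki fragments. Its VWAT levels were 6.04, 6.90 and 7.31 CPM on SD and 13.1, 18.5 and 9.68 on HFD (log2 1.03 ± 0.202, adjusted p 0.00556). Its SWAT values were 8.07, 8.77 and 10.4 on SD and 7.16, 9.50 and 10.1 on HFD, with no net difference (log2 0.00 ± 0.207). Rpa1 and Rpa2, which coat single-stranded DNA in repair as well as replication, each gave a log2 of 0.15 in VWAT.

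Nucleotide synthesis genes rose in VWAT in 4 of 5 cases, with a median log2 change of 1.06. Ribonucleotide reductase makes deoxynucleotides from a large subunit, Rrm1, and a small one, Rrm2, that is known to be degraded after S phase. Rrm2 rose from 1.82, 2.65 and 2.33 CPM to 9.20, 13.2 and 4.37 (log2 1.98 ± 0.322, adjusted p 0.00203). Its SWAT libraries were at 1.7, 2.04 and 2.38 on SD and 3.48, 4.27 and 5.51 on HFD (log2 1.17 ± 0.342, adjusted p 0.131). Both depots were without overlap. Rrm1 rose from 21.6, 26.0 and 24.6 CPM to 47.4, 53.7 and 30.6 in VWAT (log2 0.87 ± 0.160, adjusted p 0.00397). The SWAT libraries held 25.1, 27.8 and 28.1 on SD and 30.5, 33.7 and 34.0 on HFD (log2 0.28 ± 0.162, adjusted p 0.45).

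The ratio of Rrm2 to Rrm1 reads, chosen after the values were seen, was 0.0677 to 0.102 over the 6 SD libraries. It was 0.194, 0.245 and 0.143 in VWAT_HFD and 0.114, 0.127 and 0.162 in SWAT_HFD, above every SD library. Thymidylate comes from Tyms, which makes it from deoxyuridylate, and from Tk1, which salvages thymidine. Tk1 rose from 3.88, 4.63 and 2.68 CPM to 11.0, 13.3 and 4.93 in VWAT (log2 1.39 ± 0.297, adjusted p 0.00867). Tyms rose from 4.17, 4.8 and 5.30 CPM to 10.2, 13.7 and 5.92 (log2 1.06 ± 0.261, adjusted p 0.017). Both were higher in each HFD library than in any SD library, by little in replicate 3. In SWAT, Tk1 was at 2.75 to 3.39 on SD and 4.05 to 5.51 on HFD, apart but not passing (log2 0.67 ± 0.317, adjusted p 0.342). Dut, which removes dUTP, did not pass in VWAT (log2 0.56 ± 0.183, adjusted p 0.0563).

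Chromatin and DNA methylation are copied with the DNA, and 3 of these 4 genes rose in VWAT. Chaf1b, of the assembly factor that places histones behind the fork, rose from 0.748, 1.19 and 1.03 CPM to 5.51, 5.74 and 2.0 (log2 2.17 ± 0.363, adjusted p 0.00239). In SWAT the libraries stood at 0.555, 1.13 and 1.01 on SD and 1.34, 1.39 and 1.64 on HFD (adjusted p 0.419). Its partner Chaf1a rose by 0.88 ± 0.221 on the log2 scale in VWAT (adjusted p 0.0193), less than Chaf1b in size, with that difference not tested. Uhrf1 recognises hemimethylated DNA and recruits Dnmt1, the enzyme that restores the second strand's methyl groups. Uhrf1 rose from 4.92, 6.28 and 5.72 CPM to 17.0, 25.9 and 12.2 in VWAT (log2 1.7 ± 0.250, adjusted p 0.00133). In SWAT it stood at 2.81, 2.97 and 3.67 on SD and 4.82, 5.94 and 8.57 on HFD (log2 1.09 ± 0.273, adjusted p 0.0808). Dnmt1 was at 25.9, 25.8 and 23.3 CPM in VWAT_SD and 26.9, 36.2 and 32.0 in VWAT_HFD (log2 0.34 ± 0.117, adjusted p 0.065).

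Both genes of fork checkpoint and origin re-use control rose in VWAT. Clspn encodes claspin, which carries the ATR checkpoint signal to Chk1 at the fork, and had the largest change of the 43. It went from 0.816, 0.783 and 0.831 CPM to 4.33, 6.92 and 2.58, a 5.68-fold rise (log2 2.51 ± 0.323, adjusted p 0.000855). In SWAT it was at 0.708, 0.736 and 1.15 on SD and 2.94, 1.83 and 2.25 on HFD (log2 1.46 ± 0.350, adjusted p 0.0679). Dtl directs a ubiquitin ligase that destroys Cdt1 in S phase. It rose from 1.14, 1.86 and 1.27 CPM to 5.63, 8.63 and 3.70 (log2 2.08 ± 0.284, adjusted p 0.000958). Its SWAT libraries were at 0.937, 1.02 and 1.33 on SD and 1.94, 2.20 and 2.48 on HFD (adjusted p 0.135). Gmnn and Dtl are known to restrain re-licensing and Clspn to restrain the cycle when forks stall, and their groups were apart in both depots.

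By step, the median log2 change in VWAT ran from 2.29 for the fork checkpoint pair through 1.30 for helicase activation, 1.29 for chromatin and 1.06 for nucleotide synthesis to 0.15 for strand maturation. Licensing (0.65), MCM2-7 (0.60), polymerases (0.56) and the clamp with its loader (0.43) lay between. Differences between steps were not tested, and most steps held both genes that rose and genes that did not. Mean log2 CPM over the 43 genes was 2.14 to 2.32 in VWAT_SD and 2.66 to 3.52 in VWAT_HFD. In SWAT it was 2.13 to 2.33 on SD and 2.31 to 2.70 on HFD, so the SWAT groups overlapped in part.

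**Figure D3:**
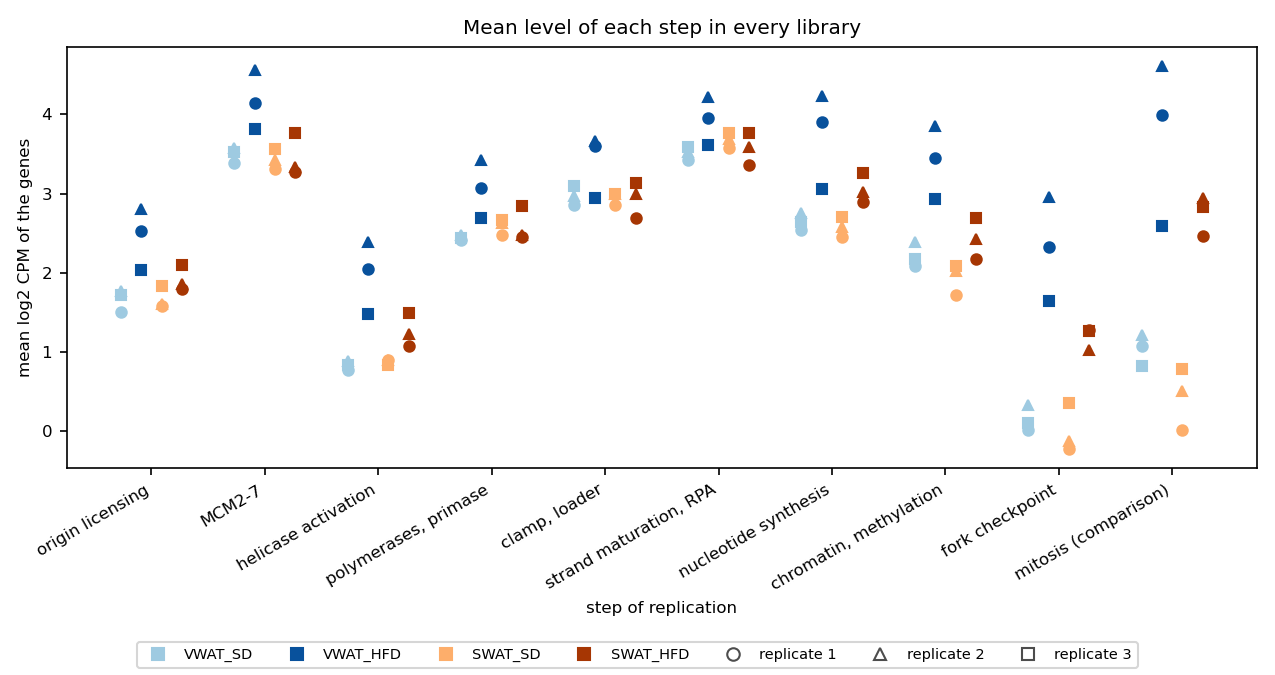
Mean log2 CPM of each step's genes in every library, with the 20 mitosis genes at the right. Colours give depot and diet, and shapes the replicates. In the fork checkpoint pair all HFD libraries lie above the SD libraries of their depot. In the clamp and loader genes VWAT_HFD replicate 3 lies among the SD libraries.

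In SWAT no replication gene passed on HFD, where 0.967% of all genes rose and 0.147% fell. The median log2 change of the 43 was 0.09, with a range of -0.33 to 1.55, and -0.001 over all genes. With library size as the only scaling that median was -0.08, while the median over all genes was -0.177. At an unadjusted p under 0.05, edgeR gave 7 genes higher and 1 (Mcm4) lower, against 8.78% and 6.08% of all genes. The 7 were Gmnn, Clspn, Mcm10, Rrm2, Uhrf1, Dtl and Dbf4, and DESeq2 called the same 7 where limma voom called none. Over all genes DESeq2 called 414 higher and 122 lower, and limma voom only 6 higher and 6 lower. In 12 genes all HFD libraries lay above all SD libraries and in 2 below, against 11.6% and 10.2% of all genes. Among the SWAT_HFD libraries, replicate 1 was lowest in 32 of 43 genes and replicate 3 highest in 36. Without SWAT_HFD replicate 2, with its leukocyte markers, the median was 0.16. By edgeR, 0 genes were then called in either direction over all genes, against 138 higher and 21 lower with it. The same held without SWAT_SD replicate 1, 2 or 3, each of which also left 0 calls over all genes. In these fits the calls therefore say nothing of the replication genes. VWAT libraries enter only through the shared spread, the filter and the scaling. Yet 7 genes passed without VWAT_HFD replicate 3, where 451 rose over all genes. Without VWAT_HFD replicate 2, 2 genes passed (Clspn and Uhrf1), where 172 rose over all genes.

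The size of the diet difference between depots was tested as an interaction. It was positive, that is larger in VWAT, in 42 of 43 genes, with a median of 0.63, where 49.4% of all genes were positive. Orc6 was the exception, at -0.01 ± 0.222, and it turned slightly positive under other scalings. None passed by edgeR (0.0% of all genes did), DESeq2 or limma voom, and the lowest adjusted p was 0.489 for Lig1 (1.03 ± 0.289). At an unadjusted p under 0.05, 20 genes were higher and 0 lower, against 3.07% of all genes higher and 4.12% lower. These estimates share the 4 groups' libraries, so the 43 signs are not independent of each other. Without VWAT_HFD replicate 3, 6 genes passed (Mcm2, Gins2, Prim1, Lig1, Rrm1 and Chaf1b), where 71 were higher and 64 lower over all 14266 genes.

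The largest interaction estimates were in Chaf1b (1.42 ± 0.543), Gins1 (1.29 ± 0.411), Prim1 (1.13 ± 0.366), Pole (1.09 ± 0.343) and Mcm2 (1.06 ± 0.322). Gmnn, Clspn and Mcm10, which had the largest differences in SWAT, had estimates of 0.88 ± 0.546, 1.04 ± 0.474 and 0.96 ± 0.500. Across the 43 genes, the diet changes of the depots, which share no library, had a Pearson r of 0.91 and a Spearman rho of 0.84. Over 12757 genes with an exon length these were 0.57 and 0.58. Within a depot all genes share the same libraries, so the 43 points are not independent.

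**Figure D4:**
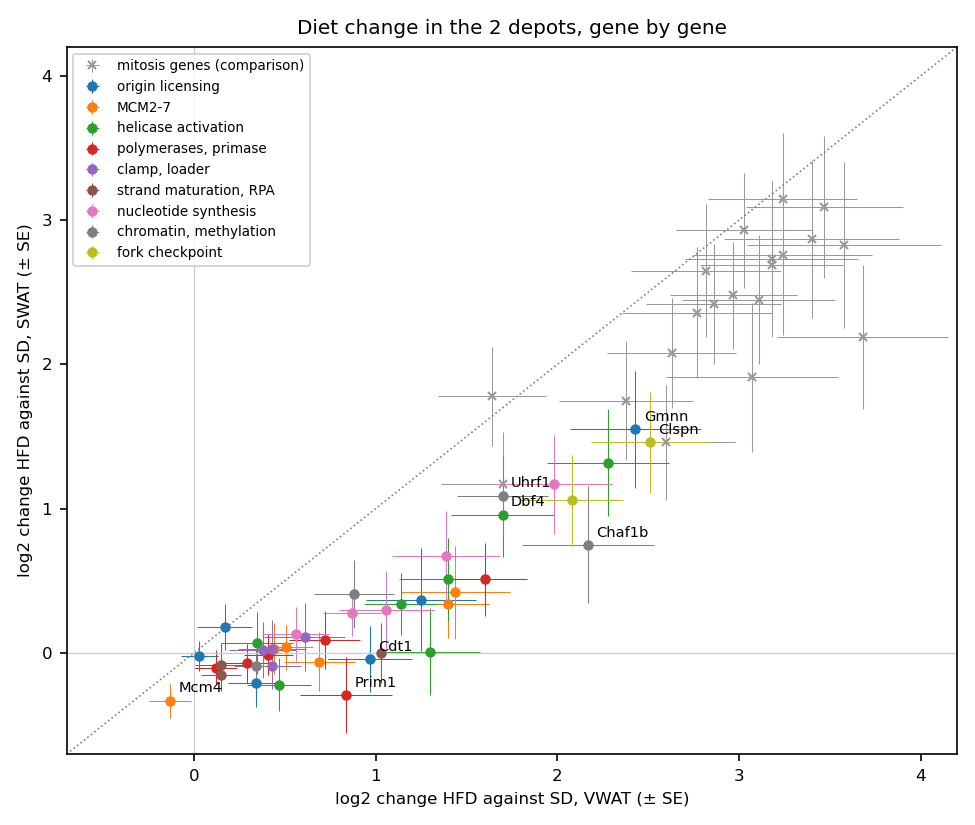
Log2 change on HFD in VWAT (x) and in SWAT (y), each with its SE, for the 43 replication genes by step and for 20 mitosis genes (grey crosses). The dotted line marks equal change. All replication genes but Orc6, which lies almost on it, are below the line, and Gmnn and Clspn are highest among them in SWAT.

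Averaged over the depots, 20 of the 43 genes rose and none fell on HFD, where 10.5% of all genes rose and 8.78% fell, and the median log2 change was 0.40. Clspn (1.98, adjusted p 0.000239), Gmnn (1.99, 0.000477) and Mcm10 (1.80, 0.000539) led. Mcm3, Mcm6, Cdt1, Prim1 and Pole2, which rose in VWAT, did not pass in this average. Mcm4 was lower by a log2 of -0.23 ± 0.0821 and did not pass (adjusted p 0.066). It was called lower with library size as the only scaling, with the replicate block and without VWAT_HFD replicate 3. Over all genes 3781, 1274 and 2312 were lower in these fits, instead of 1252. Without VWAT_HFD replicate 3, 32 of the 43 genes rose, where 2332 of all genes rose instead of 1493.

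Between depots on SD, replication genes were close. VWAT was higher than SWAT in 2 of 43 (13.2% of all genes) and lower in 1 (12.5% of all genes), with a median log2 difference of 0.05. Cdt1 was lower in VWAT (log2 -0.93 ± 0.232, adjusted p 0.00908) with no overlap between libraries. Uhrf1 (0.86 ± 0.268, adjusted p 0.0303) and Orc6 (0.51 ± 0.157, 0.0301) were higher in VWAT, also without overlap. Orc6 stood at 15.2, 15.7 and 18.7 CPM in VWAT_SD and 11.3, 10.5 and 13.2 in SWAT_SD. Both higher calls were lost without any 1 of 4 SD libraries (VWAT_SD replicate 2 or 3, SWAT_SD replicate 1 or 2), and Orc6 also without SWAT_HFD replicate 2. The Cdt1 call held in all 20 alternatives.

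On HFD, VWAT was higher in 27 of the 43 genes and lower in none, where 13.4% of all genes were higher and 13.4% lower. All 43 differences were positive, with a median log2 of 0.62. Chaf1b (1.58 ± 0.367, adjusted p 0.0058), Uhrf1 (1.48 ± 0.254, 0.000624), Dtl (1.42 ± 0.285, 0.00209) and Mcm5 (1.30 ± 0.307, 0.00646) differed most. Cdt1 (0.08 ± 0.228), Pold1 (0.11 ± 0.134), Rpa1 (0.12 ± 0.114) and Pole2 (0.15 ± 0.197) were nearest to equal, and all of these but Rpa1 changed sign in some alternatives. In 14 genes the libraries did not overlap, all higher in VWAT, against 17.7% of all genes higher and 18.2% lower. The count of 27 genes that passed depended on single libraries. It was 8 without VWAT_HFD replicate 2 or SWAT_HFD replicate 2, 12 without SWAT_HFD replicate 1 and 16 without VWAT_HFD replicate 1. Over all genes, 1460 were higher in VWAT without VWAT_HFD replicate 2 and 1662 without VWAT_HFD replicate 1, instead of 1918. Counts over all genes without SWAT_HFD replicate 1 or 2 are not reported here, so those drops cannot be set beside them. Markers of several cell types differed between the same libraries. Lower in VWAT were 4 of 10 leukocyte markers, which summed to 7.72 to 10.7 CPM there and 13.6 to 48.1 in SWAT_HFD, and 4 of 9 precursor markers, among them Cd24a (5.28-fold) and Col1a1 (4.70-fold). Since the gate took cells with and without CD24, Cd24a bears on its mix: it averaged 3.08 CPM in VWAT_HFD and 16.57 in SWAT_HFD. Higher in VWAT were 3 of 6 mural markers, which summed to 113 to 132 CPM there and 35.1 to 43.7 in SWAT_HFD, with Des 8.32-fold higher. Of 4 mesothelial markers, Msln and Upk3b were higher in VWAT (17.6-fold for Upk3b) and Krt19 was lower, with sums of at most 6.86 CPM. Itgb1 and Lum of the precursor list were higher in VWAT and Tek of the endothelial list was lower. Most of these differences were there on SD too. On SD 4 of 9 precursor markers were lower in VWAT (Cd24a 5.38-fold, Col1a1 4.5-fold), and no leukocyte marker passed. Of 6 mural markers 3 were higher (Des 15-fold) and 1 was lower, and Msln and Upk3b (24.4-fold) were higher and Krt19 lower. The part of these markers in the depot differences was not tested. Mcm5, Mcm6, Cdc45, Prim2, Pole, Chaf1b, Uhrf1 and Dtl passed in every alternative in which they were tested.

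The replication genes stood beside larger changes in mitosis genes, which act later in the cycle. All 20 mitosis genes rose in VWAT (median log2 3.05) and 15 of 20 in SWAT (median 2.47), and both lists were chosen with earlier results known. Mki67, the common marker of cycling cells, was at 9.46, 10.4 and 5.59 CPM in VWAT_SD and 61.0, 114 and 32.4 in VWAT_HFD (log2 3.03 ± 0.377, adjusted p 0.000793). The SWAT libraries held 3.25, 5.0 and 4.17 on SD and 25.9, 36.5 and 31.4 on HFD (log2 2.93 ± 0.399, adjusted p 0.0189). The SWAT mitosis genes thus passed in most cases where no replication gene did. Those calls depended on single libraries. Dropping any SD library of SWAT, or replicate 2 of its HFD group, removed them all, since no gene then passed in SWAT by edgeR. The Mki67 call in SWAT held in 16 of 20 alternatives. The median interaction estimate of the mitosis genes was 0.49, against 0.63 for the replication genes. None of the mitosis interactions passed by edgeR (1 was higher at an unadjusted p under 0.05).

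Replication genes with a low level on SD changed most. To keep level and change in separate libraries, the SWAT_SD level per kb was set against the VWAT change: r was -0.77 and rho -0.76 over the 43 genes. Over 12757 genes they were 0.01 and 0.14. The VWAT_SD level against the SWAT change gave r -0.64 and rho -0.62, against -0.12 and 0.02 for all genes. In 55 other replication and nucleotide genes the same pairs gave r -0.61 and rho -0.36, and r -0.33 and rho -0.16. Levels per kb rest on GENCODE M21 exon lengths, and genes of 1 pathway are not independent points.

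**Figure D5:**
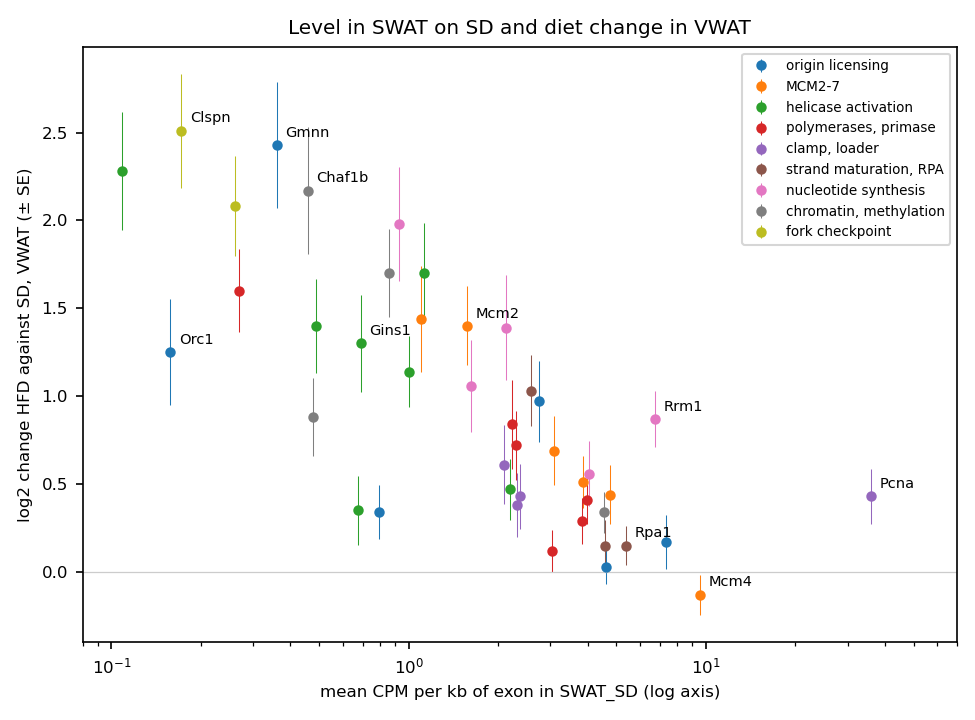
Mean CPM per kb of exon in SWAT_SD (log axis) against the log2 change on HFD in VWAT with its SE, for the 43 genes by step. Low-level genes such as Clspn, Gmnn and Chaf1b lie at the upper left and Mcm4 at the lower right. Pcna has the highest level.

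Among 55 other replication and nucleotide genes that were tested, of 56 listed, 14 rose and 1 fell in VWAT, where 8.64% of all genes rose and 6.98% fell. None passed in SWAT by edgeR. At an unadjusted p under 0.05, 5 were higher and 1 was lower in SWAT, against 8.78% and 6.08% of all genes. Neither SWAT count stood clearly above the share over all genes. The VWAT median was 0.19. Asf1b, a histone chaperone, rose most (log2 2.73 ± 0.442, adjusted p 0.00199), followed by Hells, a chromatin remodeller (1.93 ± 0.302, 0.00169) and Ung, which removes uracil from DNA (1.78 ± 0.327, 0.00395). In VWAT, Asf1b ran from 0.698 to 0.884 CPM on SD and from 2.06 to 8.17 on HFD, without overlap. Mcm9, a paralogue of the MCM subunits that works in repair, fell by 0.32 on the log2 scale (adjusted p 0.0483), a call that held in 7 of 20 alternatives, with adjusted p of 0.0213 to 0.167. Averaged over depots 13 rose, where 10.5% of all genes did. Umps (0.35 ± 0.0718, adjusted p 0.00601) of pyrimidine synthesis and Dck (0.63 ± 0.141, 0.00866) of nucleoside salvage were among the lowest p.

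Between depots on SD, 6 of these 55 genes were lower and 1 was higher in VWAT, where 12.5% of all genes were lower and 13.2% higher. On HFD 4 were lower and 6 higher, against 13.4% of all genes each way, so neither count stood above the share over all genes. Samhd1, which degrades deoxynucleotides, was at 124, 123 and 116 CPM in VWAT_SD and 244, 249 and 219 in SWAT_SD (log2 -0.97 ± 0.0952, adjusted p 4.74e-06). On HFD the difference was -1.33 ± 0.0960 (adjusted p 3.25e-07). Pola2 of polymerase alpha (-0.64 ± 0.107), Cad of pyrimidine synthesis (-0.62 ± 0.109) and Impdh1 of guanine nucleotide synthesis (-0.68 ± 0.127) were lower in VWAT on SD, and Orc3 was higher (0.31 ± 0.0765). On HFD, Pola2 (-0.54 ± 0.107), Impdh1 (-0.58 ± 0.126) and Shmt2 of the folate cycle (-0.35 ± 0.0989) were lower in VWAT. Hells (1.09 ± 0.299), Dck (0.66 ± 0.198) and Gart of purine synthesis (0.33 ± 0.0944) were higher.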

How the data were processed

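Poly(A) RNA of the 12 libraries was read as 75 bp single ends from libraries that mark the strand, per the labels' protocols. Per the submitters' processing notes, TopHat, HTSeq and build mm9 were used; versions and the strand setting of the counting are not given in the sources used here, so genes that overlap others are uncertain. The authors deposited whole-number counts per gene. Entries that name no gene (no feature 3.53 to 5.57%, ambiguous 1.71 to 1.95%, not unique 15.0 to 20.8%) were left out. Counts were filtered with filterByExpr, which kept 14266 genes, scaled by TMM and fitted in 1 edgeR quasi-likelihood model of 4 groups (edgeR 4.0.16, R 4.3.3, robust, prior degrees of freedom 5.01), with 6 contrasts and Benjamini-Hochberg adjustment over all genes tested. Steps and lists are described by counts and medians beside those of all genes.

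Replicate numbers are shared by the groups. Samples of the same number deviated together in VWAT_SD and SWAT_SD (correlations 0.18, 0.18 and 0.40), but not throughout in the other pairs of groups (-0.08 to 0.18). A block for the replicate number changed no depot call of the 43 replication genes on SD. Over all genes it moved the depot calls on SD from 1880 to 1864 higher and from 1789 to 1799 lower.

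The genes, steps, lists, promoter words and alternatives were chosen with earlier results of these data known. Values per library are given for genes named by a rule on their role, their place in a step or an unadjusted interaction p under 0.05, and further genes are given by range. Of the other pathway genes, up to 4 with the lowest adjusted p in each direction of each contrast are named. A gene that met this rule is not reported here. Lengths per gene are GENCODE M21 exon unions. The alternatives tried were scaling by library size alone or by DESeq2's size factors, no filter, a mean CPM of at least 5, DESeq2's Wald test (1.42.0), limma voom (3.58.1), a replicate block, only the 6 libraries compared, and each library left out. The model was tested on simulated data.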

Additional observations from a re-analysis of the deposited data

How the results depend on the processing

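Of the 25 replication genes that rose in VWAT, 16 passed in every alternative in which they were tested. Prim1, Mcm6, Mcm3, Pole2, Chaf1a, Cdt1, Orc1, Tyms and Tk1 did not. With library size as the only scaling, 6 genes were higher in VWAT on SD and 41 on HFD, and 1 was lower in the diet average; that scaling put the median of all genes at 0.236 and 0.301 in the depot comparisons and at -0.126 for diet in VWAT, where 799 genes rose and 1822 fell over all genes instead of 1232 and 996. On HFD it gave 5830 genes higher and 1124 lower in VWAT, instead of 1918 and 1912. Over all genes it also gave 4279 higher in VWAT on SD instead of 1880, and 3781 lower in the diet average instead of 1252. With a filter at a mean CPM of 5, which left 24 of the genes, 10 rose in VWAT, 7 in the diet average and 13 were higher in VWAT on HFD, since fewer genes were tested. DESeq2's Wald test called 7 genes higher in SWAT, where it called 414 higher over all genes instead of 138. limma voom gave 1 gene higher in VWAT on SD and 14 on HFD, where 1920 and 1731 were higher over all genes. With only the 6 libraries compared, 6 rose in SWAT, 4 were higher and 4 lower in VWAT on SD and 8 higher on HFD. Over all genes these fits gave 272 that rose in SWAT, 2182 higher and 2061 lower in VWAT on SD and 1365 higher on HFD. The cause was not tested. With the replicate block, counts were 23 in VWAT, 0 in SWAT, 19 higher and 1 lower in the diet average, 0 for the interaction, 2 and 1 between depots on SD and 22 on HFD. Over all genes the block gave 1250 that rose in VWAT and 198 in SWAT, and 1523 higher and 1274 lower in the average. Between depots it gave 1864 higher and 1799 lower on SD and 1897 higher on HFD. Leaving out 1 library at a time gave 16 to 34 genes in VWAT, 0 to 7 in SWAT (7 without VWAT_HFD replicate 3), 16 to 32 higher and 0 to 1 lower in the diet average, 0 to 6 for the interaction, 0 to 4 higher and 1 to 3 lower in VWAT on SD, and 8 to 36 on HFD. Calls over all genes moved as well. Without VWAT_HFD replicate 2, 493 rose in VWAT and 1460 were higher in VWAT on HFD. Without VWAT_HFD replicate 3 these were 2137 and 2233, with 2332 higher in the average and 2245 higher in VWAT on SD. Estimates that changed sign, among those recomputed per gene (all 43 genes for diet in VWAT, the interaction and the depots on HFD, but 21 for the diet average, 9 for diet in SWAT and 3 between depots on SD), were these. Orc2 in VWAT was -0.0798 with library size as scaling, and the Orc6 interaction was 0.0012 with DESeq2 size factors, 0.051 with library size and 0.0044 in DESeq2. With 1 library left out, log2 estimates ran from -0.026 to 0.12 (Orc2), -0.23 to 0.0048 (Mcm4) and -0.016 to 0.19 (Pola1) for diet in VWAT, from -0.0032 to 0.16 (Orc2) and -0.15 to 0.15 (Orc6) for the interaction, and from -0.22 to 0.34 (Cdt1), -0.052 to 0.24 (Pold1) and -0.021 to 0.35 (Pole2) between depots on HFD. Depth limited the lowest genes, with 8 counts in 1 library at the least.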
